A study of Rattus norvegicus with 18 samples.

Results

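The comparison set rat cortical astrocytes that had grown for 1 day on immobilized beta-amyloid peptide, residues 25 to 35, against astrocytes grown on laminin and nitrocellulose without the peptide. The 1 day group held 3 arrays and the control group 6, so 9 of the 18 arrays of the series entered it by their titles. The other 9 arrays, 3 each at 12 hours, 3 days and 5 days on the peptide, served for the spread of the fit and for the comparison between times. The labels give no strain, animal age or genotype, no time in culture for the controls, and nothing on whether the arrays came from separate cultures, so p-values measure the spread between these arrays, which may be technical. The source of controls 1 and 2 is given as cerebral cortex, while that of the other arrays is given as cortical type-I astrocytes. Each array measured 1322 probe sets for genes of the nervous system as 1 linear intensity per probe set, called the signal here. Leaving out 59 control probe sets left 1263, and 1039 of them, for 627 named genes, were bright enough to test.

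Astrocytes are glial cells that take up glutamate and potassium, feed neurons and release cytokines and growth factors. The peptide of residues 25 to 35 is a short fragment of the beta-amyloid peptide that aggregates, and amyloid deposits in the brain are surrounded by reactive astrocytes. Reactive astrocytes are known for changes in intermediate filaments, glutamate transporters, chemokines and growth factors.

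The 9 arrays did not sort by group. Across the 1039 tested probe sets, 1 day arrays 1 and 2 had a Pearson correlation of 0.958 with each other, while array 3 had 0.840 and 0.846 with them. Array 3 had 0.928 and 0.959 with controls 1 and 2, and 0.778 to 0.827 with controls 3 to 6. Arrays 1 and 2 had 0.883 to 0.900 with controls 3 to 6. Average linkage put 1 day array 3 with controls 1 and 2 in cluster 1, and 1 day arrays 1 and 2 with controls 3 to 6 in cluster 2. Cluster 1 thus held 1 of the 3 arrays at 1 day and 2 of the 6 controls, the same share of each group, so a fold is the same with or without the clusters in the fit and only its error differs.

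**Figure D1:**
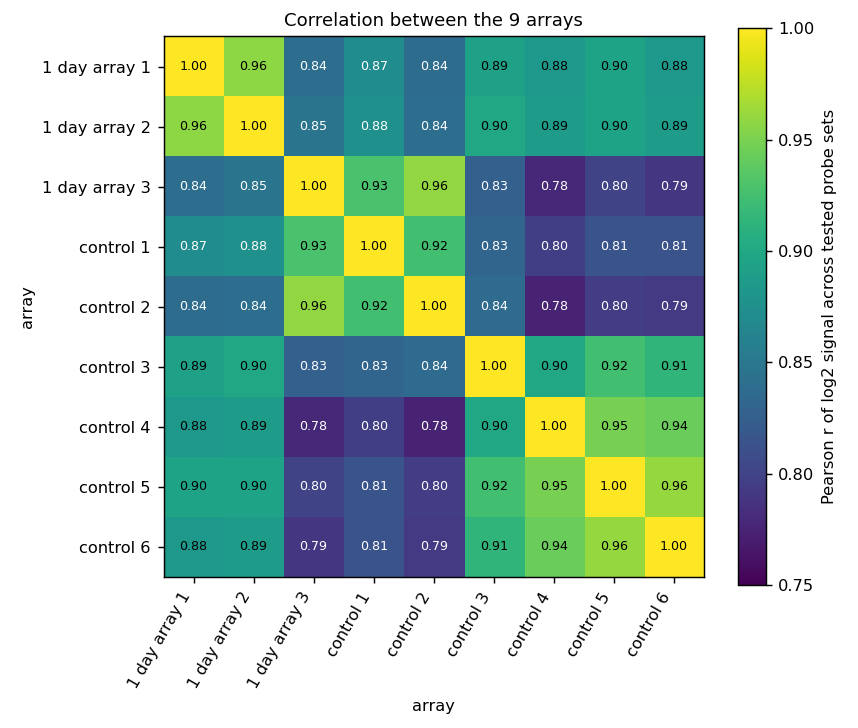
Pearson correlation of log2 signal across 1039 tested probe sets between the 9 arrays, with the arrays on both axes and the value in each cell. 1 day array 3 is closest to control 2 (0.959) and control 1 (0.928), while 1 day arrays 1 and 2 are closest to each other (0.958).

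The astrocyte markers Vim, Glul, Apoe, Slc1a3, Gja1 and Nes had signals well above the floor of 10.9 on all 9 arrays, on the brightest probe set of each. Other measured markers were less even or dimmer. S100b was low on 1 day array 3 and control 2 on a probe set given below. Mt3 had 91.9 and 156.4 on those arrays and 473.7 to 3030.2 on the others. Slc1a2 had 18.2 to 45.8 in the controls on rc_AI044517_g_at. No probe set had Gfap, App or Fn1 as its single gene symbol, so none was read as a marker under these names. Probe sets with several symbols or none were tested without a gene name, and whether any of them measures these genes was not examined. The summed signal of the 10 measured astrocyte markers, which the brightest of them carry, was 35513 to 44638 at 1 day and 29643 to 44073 in the controls. The sum of 11 neuron markers was 5040 to 5328 at 1 day and 3747 to 6401 in the controls, and that of 6 oligodendrocyte lineage markers 1170 to 1971 and 1105 to 1926, with Sox10 at the floor on all 9. Itgam was the only microglial marker measured, at 41 to 65 at 1 day and 37 to 66 in the controls. The 3 markers of fibroblasts, meninges and vessels summed to 896 to 7858 at 1 day and 697 to 8659 in the controls. They were high on 1 day array 3 and controls 1 and 2 through Igf2, and their part in the results was not tested. The signal ratio of 3′ over 5′ probe sets for beta-actin was 0.885 to 0.929 at 1 day and 0.867 to 0.960 in the controls. In these cultures fewer cells of a type and less RNA per cell cannot be told apart.

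Against the controls, 1 gene rose and 2 fell after 1 day. Slc1a2, the main glutamate transporter of mature astrocytes, rose on 1 probe set of 3. The channel gene Nalcn, whose product carries a sodium leak current at rest, fell on 1 probe set of 2. Tacr3, the receptor of the tachykinin peptide neurokinin B, fell on its only probe set. All 3 calls came from the fit over all 18 arrays, and none held with limma on the 9 arrays of the comparison alone, where the folds were the same and the adjusted p was 0.290 for Slc1a2, 0.290 for Nalcn and 0.467 for Tacr3. None held either with a block by array number, a pairing that is not known (limma adjusted p = 0.118, 0.410 and 0.410). By limma with Benjamini-Hochberg adjustment these 3 were 0.289% of the probe sets tested, 1 higher (0.0962%) and 2 lower (0.192%). A further 120 had an unadjusted p under 0.05 without passing, so that 123 in all (11.8%) did, 55 higher (5.29%) and 68 lower (6.54%). Without the filter on dim probe sets limma called 4 of 1263 (0.317%). The median log2 fold over all tested probe sets was -0.06.

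The 250 bases before the annotated starts of the 3 genes are shown for context, from RefSeq on build GRCr8, 5′ to 3′ on the gene's own strand. They were searched on both strands for TATAAA, the TATA box, and for TGACG, a core of cyclic AMP response elements. Of 33469 rat promoters of this length 12.9% hold TATAAA and 18.2% hold TGACG, and capitals mark a match.
Slc1a2 (chr3:109459859-109460108, plus strand): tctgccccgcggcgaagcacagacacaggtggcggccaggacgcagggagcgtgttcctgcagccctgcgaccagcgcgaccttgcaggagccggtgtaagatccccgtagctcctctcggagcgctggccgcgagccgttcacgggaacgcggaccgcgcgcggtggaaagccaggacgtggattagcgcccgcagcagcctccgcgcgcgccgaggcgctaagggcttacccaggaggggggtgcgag
Nalcn (chr15:107147859-107148108, minus strand): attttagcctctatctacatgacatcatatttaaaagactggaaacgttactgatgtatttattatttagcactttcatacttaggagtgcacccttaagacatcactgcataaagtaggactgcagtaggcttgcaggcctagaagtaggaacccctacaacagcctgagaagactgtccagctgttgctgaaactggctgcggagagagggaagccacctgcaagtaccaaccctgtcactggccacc
Tacr3 (chr2:225940247-225940496, plus strand): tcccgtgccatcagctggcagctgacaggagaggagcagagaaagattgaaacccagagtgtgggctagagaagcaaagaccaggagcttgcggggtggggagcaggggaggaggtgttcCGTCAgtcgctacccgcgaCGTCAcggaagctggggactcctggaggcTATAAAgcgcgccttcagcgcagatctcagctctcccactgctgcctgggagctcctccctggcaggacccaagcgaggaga
The Tacr3 window holds TATAAA from 82 bases before the start, and TGACG on the minus strand, printed as CGTCA, from 130 and 111 bases before it. The Slc1a2 and Nalcn windows hold neither. A match is a description of the letters and not a site of binding, and 1 further RefSeq start of Slc1a2 is not shown.

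Slc1a2 had signals of 152.8, 139.0 and 79.5 on 1 day arrays 1, 2 and 3, against 18.2, 45.8, 38.6, 38.1, 24.4 and 38.8 on controls 1 to 6. All 3 arrays at 1 day lay above every control, with array 3 the lowest of them. The mean was 124 ± 39.0 (SD, n = 3) at 1 day and 34.0 ± 10.4 (SD, n = 6) in the controls, a log2 fold of 1.88 ± 0.31 (SE) or 3.67-fold (limma adjusted p = 0.0153). The probe set rc_AI044517_at, named for the same sequence, had 63.1, 51.0 and 22.5 at 1 day against 7.7 to 62.1 in the controls, a log2 fold of 1.23 (limma adjusted p = 0.384). U15098_at, the third, had 97.2, 111.9 and 62.3 against 36.5 to 107.4 and a log2 fold of 0.13. The groups overlapped on both of these probe sets, and neither passed.

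Nalcn had signals of 14.8, 11.8 and 37.8 at 1 day, against 41.8, 96.8, 106.9, 135.9, 104.2 and 120.6 on controls 1 to 6. The groups did not overlap, but 1 day array 3 and control 1 lay next to each other at the edge of both. The log2 fold was -2.34 ± 0.40 (SE), 5.07-fold lower (limma adjusted p = 0.0153). Its second probe set, AF078779_at, had 18.9, 62.2 and 135.8 at 1 day against 73.8 to 263.5 in the controls. There arrays 1 and 2 were below every control and array 3 was among them, and the log2 fold of -1.51 did not pass (limma adjusted p = 0.312).

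Tacr3 had signals of 18.1, 35.6 and 8.4 at 1 day, against 60.3, 51.0, 142.0, 53.5, 68.3 and 85.1 on controls 1 to 6. Every array at 1 day lay below every control, and array 3, under the floor of 10.9, was the lowest. The log2 fold was -1.90 ± 0.37 (SE), 3.74-fold lower (limma adjusted p = 0.0407). Of the other tachykinin genes, the precursor Tac1 had a log2 fold of -0.55 on its tested probe set and did not pass, and the receptor Tacr1 and the precursor Tac3 were too dim to test. The call for Tacr3 was lost when array 1 or 3 at 1 day or control 3, 5 or 6 was left out, with limma adjusted p-values of 0.0584 to 0.284. It was also lost with a floor at the 20th percentile (limma adjusted p = 0.112) or a trended and robust eBayes (0.0669). Slc1a2 and Nalcn lost it without 1 day array 1 (limma adjusted p = 0.195 for both) or array 2 (0.146 and 0.162).

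**Figure D2:**
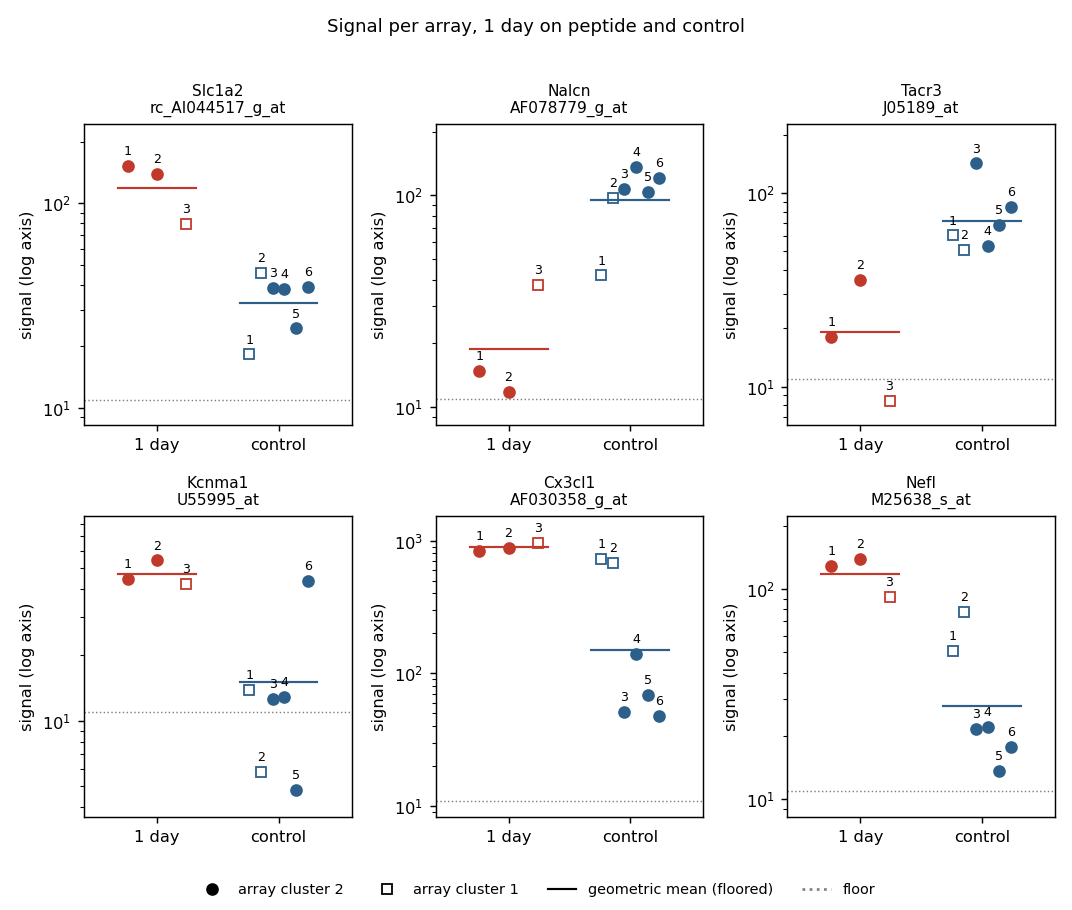
Signal per array on a log axis for 6 probe sets, with the 3 arrays at 1 day on the left and the 6 controls on the right, numbered by replicate; open squares are arrays of cluster 1, filled circles of cluster 2, lines are geometric means of values raised to the floor (dotted, 10.9). Slc1a2 and Nefl lie above and Nalcn and Tacr3 below every control on all 3 arrays at 1 day, Kcnma1 meets control 6, and Cx3cl1 is close to controls 1 and 2.

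Apart from the 3 called genes, Kcnma1, the pore of the large-conductance calcium-activated potassium channel, came closest to the threshold. It had 44.7, 54.3 and 42.5 at 1 day, against 13.8, 5.8, 12.6, 12.8, 4.8 and 43.9 in the controls. The 3 arrays at 1 day were alike, and control 6 was as high as they were. Its log2 fold was 1.64 ± 0.35 (SE), with 0.0664 as the limma adjusted p. It passed with quantile normalization, median centring or cyclic loess (limma adjusted p = 0.0191, 0.0324 and 0.0280), with the clusters as a term (0.0182), with array quality weights (0.00729), and without control 6 (2.35e-05), controls 1 and 2 (0.0355) or 1 day array 3 (0.0413). It did not pass with a floor at the 5th or 20th percentile (limma adjusted p = 0.138 and 0.118) or a trended and robust eBayes (0.137). Nor did it without 1 day array 1 or 2 (limma adjusted p = 0.284 and 0.237), or without control 1, 2, 3, 4 or 5 (0.0524 to 0.167). Controls 2 and 5 were under the floor of 10.9, and those 2 other floors gave log2 folds of 1.89 and 0.85. With only the 9 arrays of the comparison in the fit, the limma adjusted p was 0.525. A second probe set, AF083341_s_at, had 60.7, 19.6 and 78.5 at 1 day against 54.8 to 125.3 in the controls and a log2 fold of -1.0, so the probe sets of this gene disagreed in sign.

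All 3 arrays at 1 day lay above all 6 controls on 10 tested probe sets (0.962%) and below them on 8 (0.770%). Shares of this size also arise by chance when 3 arrays are set against 6, so the lack of overlap is only a description. The 10 higher ones were for Slc1a2, the neurofilament light chain Nefl on both of its tested probe sets, the chemokine Cx3cl1, the protease Capn8, the vesicle protein Syngr1, the nicotinic receptor subunit Chrnb4, the semaphorin receptor Nrp2, the integrin subunit Itgb3 and the arrestin Arrb2. The 8 lower ones were for Nalcn, Tacr3, the pentraxin receptor Nptxr, the kinases Camkk1 and Camk2d, the phospholipase Pld2 and 2 without a gene name. Other than the 3 called genes none of these passed.

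Nefl, a subunit of the intermediate filaments of neurons, had 129.2, 139.2 and 91.4 at 1 day against 50.7, 78.0, 21.6, 22.1, 13.6 and 17.7 in the controls on M25638_s_at. On AF031880_at it had 441.5, 427.1 and 195.3 against 72.5, 153.1, 159.1, 111.5, 127.7 and 111.7. The log2 folds were 2.09 ± 0.69 (SE) and 1.49 ± 0.51 (SE), and neither passed (limma adjusted p = 0.312 and 0.325). On the first probe set controls 1 and 2 were the highest controls, while on the second control 1 was the lowest. Capn8 had 62.5, 81.0 and 47.8 against 12.1 to 41.2 on D14480_at, a log2 fold of 1.50, and its other tested probe set had 0.09.

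Nrp2 and Chrnb4 differed by less. Nrp2 had 240.9, 254.4 and 295.9 at 1 day against 121.5 to 202.7 in the controls, a log2 fold of 0.61. Chrnb4 had 351.1, 410.6 and 359.9 against 81.9 to 304.9, a log2 fold of 0.97. Nptxr had 51.3, 78.4 and 81.5 on AF005099_at against 94.8 to 142.6, a log2 fold of -0.82 (limma adjusted p = 0.146). Pld2, which makes phosphatidic acid, had 305.6, 316.1 and 359.2 against 414.9 to 573.0, a log2 fold of -0.64. None of these 4 passed, and for Nptxr the groups were separated only by the gap between 81.5 and 94.8.

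Cx3cl1, a membrane-bound chemokine whose receptor is found on microglia, showed how the clusters enter the comparison. On AF030358_g_at it had 837.3, 884.2 and 960.1 at 1 day, against 731.3 and 679.7 on controls 1 and 2 and 51.0, 139.0, 68.4 and 47.5 on controls 3 to 6. All 3 arrays at 1 day were above every control, but controls 1 and 2 were far closer to them than to the other controls. Over all arrays the log2 fold was 2.57 ± 0.86 (SE) and did not pass (limma adjusted p = 0.312). The value was 3.63 for arrays 1 and 2 against controls 3 to 6 and 0.45 for array 3 against controls 1 and 2. The probe sets rc_AI227647_s_at and rc_AA800602_s_at had log2 folds of 2.65 and 1.80 with controls 1 and 2 again the highest controls, and AF030358_at had 0.44.

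Without array 3 the comparison of 1 day arrays 1 and 2 with the 6 controls gave 26 calls (2.50%), 14 higher (1.35%) and 12 lower (1.15%). Array 3 was set apart because its values were known to differ from those of arrays 1 and 2. The limma p-values of the fit without it may therefore be too small, here and in the paragraphs that follow. Of the 3 probe sets called with all arrays, 2 were among these 26, those of Slc1a2 and Nalcn. Arrays 1 and 2 lay outside the range of the controls on all 26. Array 3 lay inside it on 20, for 12 of the 14 higher and 8 of the 12 lower. These calls therefore rest on 2 arrays at 1 day. Both lay in cluster 2, while controls 1 and 2 lay in cluster 1, so this fit lost the equal shares of the clusters. Cluster and exposure cannot be fully told apart in its folds. With controls 1 and 2 also left out, the log2 fold of Penk went from 2.70 to 2.09. That of Fos on X06769cds_at went from -2.65 to -3.04. Limma called 58 (5.58%) without controls 1 and 2, and 70 (6.74%) without these and 1 day array 3.

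The 12 lower calls without array 3 were for Nalcn on 2 probe sets, Fos on 3, and Nr4a3, Grin1, Igfbp2, the Notch target Hes1, Nptxr, the sodium channel Scn2a and the syntaxin Stx5. Fos, which encodes part of the AP-1 transcription factor, passed on its 3 tested probe sets. On X06769cds_at it had 193.6, 253.0 and 1795.7 at 1 day, against 517.2, 1270.0, 1164.5, 2159.1, 2182.4 and 2003.7 in the controls. On arrays 1 and 2 it was below every control, and on array 3 it was among the controls. Its log2 fold was -2.65 without array 3 (limma adjusted p = 0.00440) and -1.64 with it (0.334). Nr4a3, an orphan nuclear receptor of the same class of rapidly induced genes, had 29.5, 117.3 and 571.9 on X86003_at against 151.0 to 340.8. Array 3 was above every control there, and the log2 fold was -2.17 without array 3 (limma adjusted p = 0.0303) and -1.08 with it. Its other tested probe sets, rc_AI176710_at and rc_AI145834_at, had the opposite sign, with log2 folds of 1.51 and 0.84 over all arrays, and neither passed.

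Grin1, the obligatory subunit of NMDA-type glutamate receptors, had 9.5, 16.7 and 73.5 at 1 day, against 77.0, 83.3, 64.2, 87.2, 82.9 and 79.5 in the controls on S39221_at. The controls lay close together, arrays 1 and 2 were near the floor and array 3 was within the controls. The log2 fold was -2.54 without array 3, with the smallest limma adjusted p of that fit, 5e-06, and -1.73 ± 0.40 (SE) with it (0.0990). Igfbp2, a secreted binding protein of insulin-like growth factors, had 3622.2, 3742.5 and 9902.7 against 5011.0 to 12262.6 on J04486_at. Its log2 fold was -1.35 without array 3 (limma adjusted p = 0.0303) and -0.87 with it, and control 1 was the lowest control.

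The 14 higher calls without array 3 were for Slc1a2, Cnr1, Penk, Fgf2, Lif, Slc2a3, Tfrc, Kcnma1, the synaptotagmin Syt4, the phosphodiesterase Pde4b, Mmd, another Nptxr probe set and 2 without a gene name. The Nptxr probe sets AF005099_at and rc_AI045501_s_at thus disagreed in sign, with log2 folds of -0.82 and 1.51 over all arrays. Cnr1, the cannabinoid receptor of the brain, had 207.0, 212.1 and 34.1 at 1 day, against 34.2, 46.3, 39.0, 21.2, 33.7 and 32.4 in the controls. The signal stood apart on arrays 1 and 2 and was level with the controls on array 3. The log2 fold was 2.64 without array 3 (limma adjusted p = 0.00560) and 1.77 with it (0.312). Penk, the precursor of the enkephalins, had 5438.9, 5567.2 and 699.6 against 232.1, 578.1, 1053.6, 1128.1, 1469.5 and 1594.6. Its log2 fold was 2.70 without array 3 (limma adjusted p = 0.0337) and 1.70 with it, and within the clusters array 3 was above both controls 1 and 2.

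Fgf2, a mitogen of astrocytes, had 764.8, 782.1 and 199.7 at 1 day against 156.1 to 305.1 in the controls. Lif, a cytokine of the interleukin-6 family, had 472.0, 437.9 and 41.4 against 47.7 to 144.5, so that array 3 was below every control. Both passed without array 3, with log2 folds of 1.85 for Fgf2 and 2.24 for Lif (limma adjusted p = 0.00440 and 0.0149), and with it they had 1.19 and 1.09. Slc2a3, a glucose transporter best known from neurons, had 2290.0, 2195.7 and 1065.4 against 608.1 to 1067.3, and array 3 was level with control 2, the highest control. Its log2 fold was 1.55 without array 3 (limma adjusted p = 0.00523) and 1.19 ± 0.27 (SE) with it (0.0974). Tfrc, the transferrin receptor that brings iron into cells, had 629.2, 597.4 and 196.9 against 193.1 to 342.8 and log2 folds of 1.24 without array 3 (limma adjusted p = 0.00746) and 0.69 with it.

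**Figure D3:**
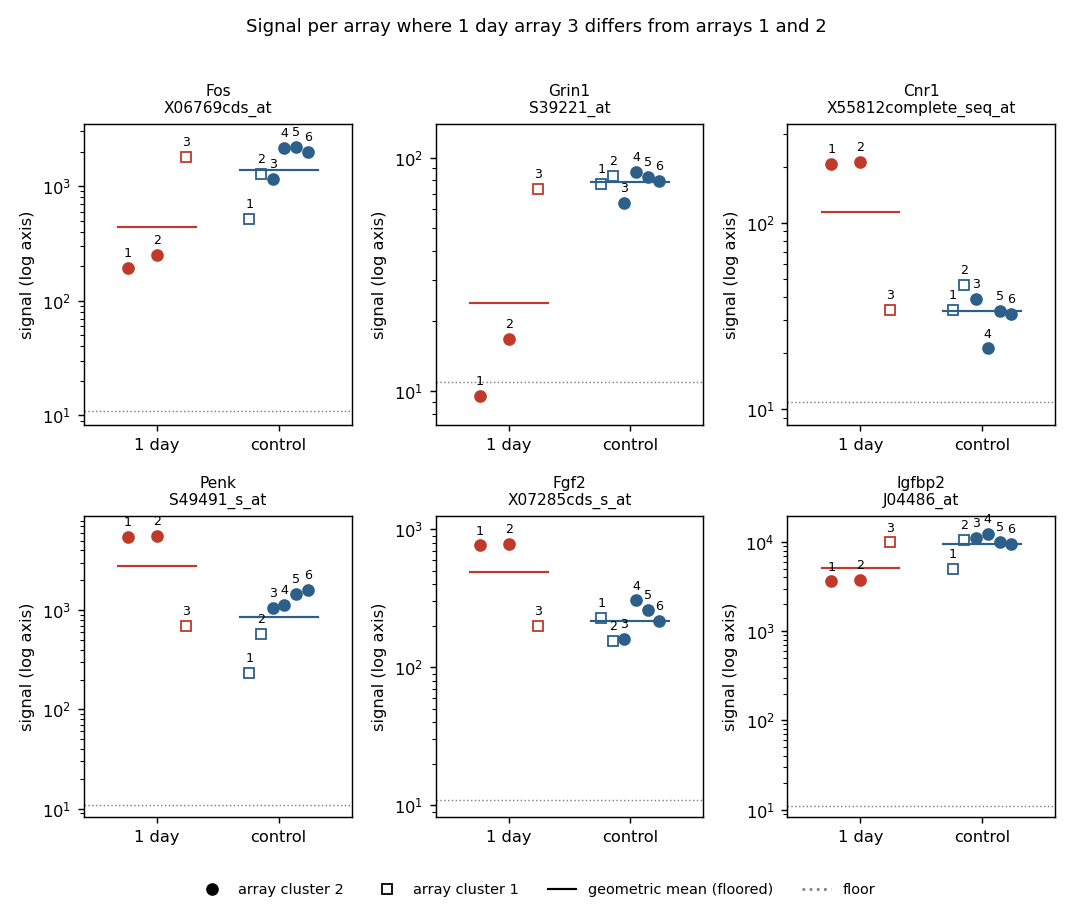
Signal per array on a log axis for 6 probe sets that passed without 1 day array 3, with 1 day on the left and control on the right; open squares are arrays of cluster 1, filled circles of cluster 2, lines geometric means of values raised to the floor (dotted, 10.9). Arrays 1 and 2 lie outside the controls in each panel, and array 3 lies within the range of the controls.

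Array 3 differed from the mean of arrays 1 and 2 by over 1 log2 unit on 271 probe sets (26.1%), 123 above and 148 below. Arrays 1 and 2 differed from each other by that much on 127 (12.2%). The proteoglycan Ncan had 25.4 on array 3 and 3314.9 and 3225.9 on arrays 1 and 2, and the controls divided in the same way, with 145.2 and 57.3 on controls 1 and 2 and 1788.3 to 3575.9 on controls 3 to 6. The metallothionein Mt3 had 91.9 on array 3 and 2910.6 and 3030.2 on arrays 1 and 2, against 473.7 and 156.4 on controls 1 and 2 and 694.5 to 2001.0 on controls 3 to 6. The hormone somatostatin, Sst, was the reverse on M25890_at, with 1414.6 on array 3 and 12.4 and 25.4 on arrays 1 and 2, against 1424.9 and 643.5 on controls 1 and 2 and 30.1 to 43.9 on controls 3 to 6. None of the 3 passed between 1 day and control, with log2 folds of -0.39, 0.24 and -0.51.

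With the clusters as a term in the fit, 30 probe sets passed (2.89%), 12 higher (1.15%) and 18 lower (1.73%). The 3 genes called without that term were among them, with limma adjusted p-values of 0.00508 for Slc1a2 and 0.00849 for both Nalcn and Tacr3. Since the values themselves defined the clusters, these p-values may be too small. The fold had the same sign within both clusters on 28 of the 30, but it was over 1 log2 unit within both on 6, and under 0.5 for array 3 against controls 1 and 2 on 18.

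On these 18 the difference lay mainly between arrays 1 and 2 and controls 3 to 6, and Lsamp, Gria3 and Serpine2 were among them. Lsamp, an adhesion protein of limbic neurons, had 13.2, 17.3 and 16.5 at 1 day, against 12.1 and 19.2 on controls 1 and 2 and 221.1, 532.7, 770.4 and 816.2 on controls 3 to 6. All 3 arrays at 1 day were level with controls 1 and 2 and far below controls 3 to 6. Cntf, a neurotrophic cytokine that astrocytes make, had 433.5, 379.3 and 85.3, against 118.0 and 126.3 and then 1623.9 to 1982.0. Gria3, an AMPA receptor subunit, had 68.1, 21.2 and 11.1 on X54656_at, against 10.2 and 5.1 and then 214.7 to 298.4. Serpine2, a protease inhibitor secreted by glia, ran the other way with 2278.8, 2111.5 and 6512.6, against 4585.9 and 4906.0 and then 719.1 to 1241.6. For Cntf, Gria3 and Serpine2, arrays 1 and 2 lay between the control clusters. These 4 genes fall outside the rule for named genes and were chosen after their values were seen, and their limma adjusted p-values with the cluster term were 0.0196, 0.00508, 0.0341 and 0.0289, against 0.343, 0.579, 0.618 and 0.551 without it.

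Slc1a2 had a log2 fold of 2.08 for arrays 1 and 2 against controls 3 to 6 and 1.46 for array 3 against controls 1 and 2. Tacr3 had -1.68 and -2.35, Kcnma1 1.56 and 1.79, and Nalcn -3.14 and -0.75. Il1rn, the natural antagonist of interleukin-1, had 58.2, 90.7 and 191.7 at 1 day, against 23.4, 118.3, 29.5, 19.6, 20.2 and 38.0 in the controls, and folds of 1.49 and 1.87. Prkcb, a protein kinase C, had 240.7, 221.6 and 11.9, against 33.7, 46.2, 591.3, 624.6, 752.0 and 670.5, and folds of -1.51 and -1.73. Arrays 1 and 2 differed from controls 3 to 6 by over 1 log2 unit on 180 probe sets (17.3%), and array 3 from controls 1 and 2 on 107 (10.3%). Both folds exceeded 1 log2 unit in the same direction on 10 higher (0.962%) and 6 lower (0.577%), and they exceeded it in opposite directions on 18 (1.73%), Fos and Nr4a3 among them.

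**Figure D4:**
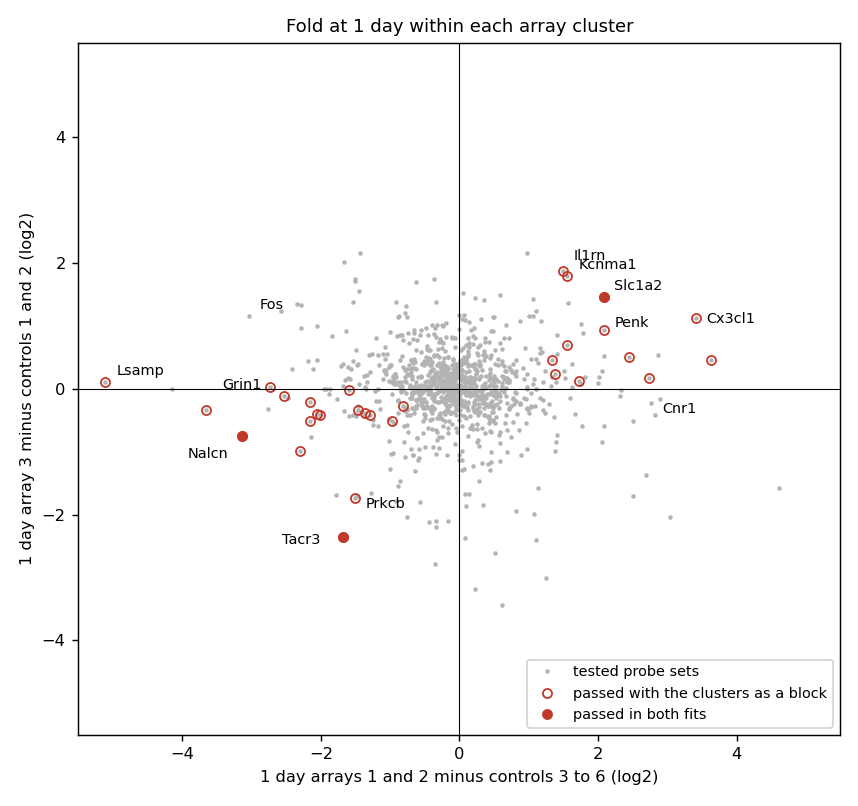
Log2 fold of 1 day arrays 1 and 2 against controls 3 to 6 (x) and of 1 day array 3 against controls 1 and 2 (y) for 1039 tested probe sets (grey); red circles passed with the clusters as a term and filled ones also without it. Slc1a2 and Kcnma1 lie high on both axes and Tacr3 low on both, while Lsamp and Grin1 lie near 0 on y and Fos changes sign.

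The gene lists were described by counts of tested probe sets, for comparison with the whole, where 587 of 1039 had a fold below 0. At an unadjusted p under 0.05, 5.29% of the whole were higher and 6.54% lower. Of 17 probe sets for glutamate uptake and glutamine synthesis, 1 rose, that of Slc1a2, and the median log2 fold was 0.09. Glul, which makes glutamine, had folds of -0.12 to 0.08 on its 4 probe sets, and the other glial glutamate transporter, Slc1a3, had 0.03 to 0.61 on its 4. Glutamate receptors had 21 of 27 probe sets below 0 and a median of -0.39, and 0 passed by limma, with 5 at an unadjusted p under 0.05, all lower. Besides Grin1 these were Grik5 with a log2 fold of -1.03, Grin2a with -0.99, Grm7 with -0.71 and Gria4 with -0.65. Grik5 had 305.2, 337.8 and 210.8 at 1 day, against 235.6 and 318.6 on controls 1 and 2 and 648.9 to 999.3 on controls 3 to 6. Its arrays at 1 day were level with controls 1 and 2 and below controls 3 to 6. The count over the list is a description, since the members share arrays and no test was made of it.

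Of 20 probe sets of immediate early transcription factors, 0 passed by limma, 1 was higher and 4 were lower at an unadjusted p under 0.05, and the median was -0.17. Of 51 for cytokines, chemokines and inflammation, 0 passed by limma, 9 were higher and 2 lower at an unadjusted p under 0.05, and the median was 0.05. Over all tested probe sets 5.29% were higher and 6.54% lower at that p. The 9 included Cx3cl1 on 3 probe sets, Il1rn, Tgfb1 with a log2 fold of 1.27, and Ptgs2 with 1.88. The product of Ptgs2 makes prostaglandins at sites of inflammation. The gene had 1653.5, 1835.0 and 917.7 at 1 day, against 1407.4 and 762.1 on controls 1 and 2 and 171.5 to 398.1 on controls 3 to 6. The controls were divided as for Cx3cl1, and 1 day array 3 lay between controls 1 and 2.

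Neuropeptide precursors had 4 of 16 probe sets at an unadjusted p under 0.05, all higher. They were Gal with a log2 fold of 2.56, Penk, and Pnoc, the nociceptin precursor, with 0.61 and 0.51 on 2 probe sets, and 0 passed by limma. Gal, the galanin precursor, had 458.5, 448.4 and 126.5 at 1 day, against 359.0 and 393.0 on controls 1 and 2 and 11.6 to 53.5 on controls 3 to 6, so array 3 was below both controls of its cluster. Potassium channels had 27 of 36 probe sets below 0 and a median of -0.14, with 1 higher and 3 lower at an unadjusted p under 0.05. Of 42 for sodium and calcium channels with Nalcn, 1 passed, 7 were lower and 2 higher at an unadjusted p under 0.05, and the median was -0.05. The 7 lower ones were Nalcn on both probe sets, Asic1 with -1.16, Scn8a with -1.20 on M27223_at, Cacna1d with -0.93, Scn2a with -0.62 and Cacnb3 with -0.48, and the 2 higher ones Itpr1 with 0.71 and Cacna1a with 0.70. Folds were above 0 on 20 of the 42 and below on 22, and over all probe sets 5.29% were higher and 6.54% lower at that p.

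The 21 probe sets of astrocyte markers had a median log2 fold of 0.09, which was 0.64 without array 3, and 1 passed, that of Slc1a2. Vim had 11977.8, 14497.8 and 16603.7 at 1 day against 8770.4 to 18647.7 in the controls, a log2 fold of 0.00. S100b had 528.6, 588.3 and 21.6 on S53527mRNA_s_at, against 401.2, 19.7, 661.8, 930.3, 1029.8 and 1209.0. Array 3 and control 2 shared a low level that no other array had. The reactive astrocyte genes had a median of -0.24 over 13 probe sets, and the metallothioneins with oxidative stress genes 0.14 over 17. Limma called 0 in either, and 1 and 3 had an unadjusted p under 0.05, against 11.8% of all tested probe sets.

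**Figure D5:**
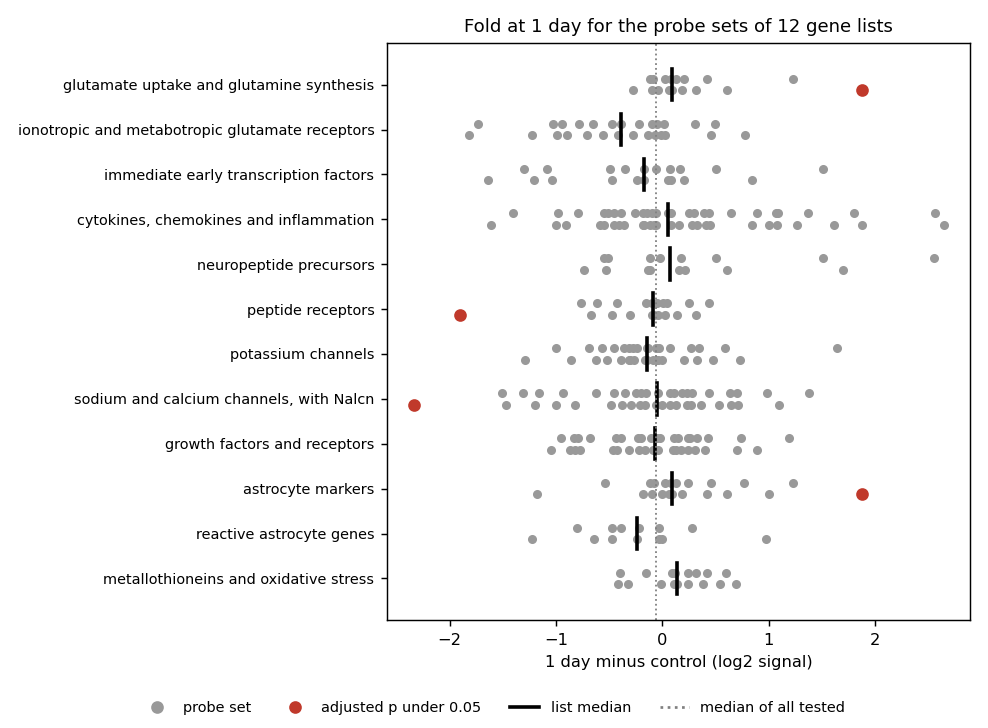
Log2 fold at 1 day against control for each tested probe set of 12 gene lists (grey points, red where the limma adjusted p was under 0.05), with list medians as black lines and the median of all tested probe sets, -0.06, dotted. The only red points are Slc1a2, which belongs to 2 of the lists, Nalcn and Tacr3, and the glutamate receptors have the lowest median of the 12, -0.39.

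The other times were compared with the same 6 controls, so their folds share the controls' values and are given side by side. At 12 hours, 1 day, 3 days and 5 days, Slc1a2 on rc_AI044517_g_at had log2 folds of 0.42, 1.88, 0.17 and 1.18 against control, and it passed at 1 day alone. Tacr3 had -0.85, -1.90, -0.12 and -0.55, and also passed at 1 day alone. Nalcn on AF078779_g_at had -3.12, -2.34, 0.28 and -0.33, and passed at 12 hours (limma adjusted p = 0.00104) and 1 day. Kcnma1 on U55995_at had 1.65, 1.64, -0.26 and -0.47, with a limma adjusted p of 0.0407 at 12 hours.

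The differences between times do not use the control means, but the controls stayed in the fit and entered its estimate of the spread. Between times, Nalcn was the only probe set that passed (0.0962%). It was higher at 3 days than at 1 day by a log2 difference of 2.62 ± 0.46 (SE), with a limma adjusted p of 0.0430. No other difference of 1 day from another time passed, so a call at 1 day alone is not shown to be particular to that time. For 3 days minus 1 day 91 had an unadjusted p under 0.05 (8.76%), and the log2 difference was -1.71 for Slc1a2 and -1.90 for Kcnma1, both with a limma adjusted p of 0.0906. For 1 day minus 12 hours 0 passed by limma and 150 had an unadjusted p under 0.05 (14.4%), and for 5 days minus 1 day 0 passed and 191 did (18.4%). The smallest limma adjusted p for 1 day minus 12 hours was 0.0718, shared by Penk at 3.67, Nefl on AF031880_at at 2.97, Nrp2 at 1.05 and Ccl5, a chemokine, at -6.24. Cluster 1 held all 3 arrays at 12 hours, 1 of 3 at 1 day, 1 of 3 at 3 days and 0 of 3 at 5 days, against 2 of 6 controls. Time and cluster therefore cannot be fully told apart in 1 day minus 12 hours, in 5 days minus 1 day, or in the folds of 12 hours and 5 days against control.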

How the data were processed

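The deposited table holds a linear intensity for each probe set on each array, and no source used here names the software or the scaling. With 2% of values trimmed at each end, the mean was 502.1 to 502.6 on the 9 arrays, so the authors had scaled this intensity before deposit, and no scaling was added. Values below the 10th percentile of all values (10.9) were raised to it and log2 was taken. Probe sets above the 30th percentile (43) on at least 3 of the 18 arrays were tested, which left 1039 of 1263, and the 59 control probe sets were left out. The model (limma 3.58.1, R 4.3.3, lmFit and eBayes) took all 18 arrays in 5 groups and had 13 residual degrees of freedom. Tests were two-sided, with Benjamini-Hochberg adjustment over all tested probe sets of a comparison and a threshold of 0.05. A fold is the difference in mean log2 signal, and folds of genes near the floor are understated. The number of arrays limits the precision.

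Genes came from the platform annotation, which gave 1 symbol for 1137 probe sets, several for 8 and none for 118, and 1132 matched the reference gene table with 0 symbols changed. Average linkage on the distance 1 minus r gave the 2 clusters. Same-numbered arrays of the 2 groups deviated from their group means with correlations of -0.298, -0.537 and -0.244. Each such pair lay in opposite clusters, and the correlations followed the clusters. They therefore cannot decide whether the numbers pair the samples. No pair of arrays shared more than 0.554% identical values. The fitting procedure was tested on simulated data with independent noise on each array and no array clusters. That test therefore cannot show how often the fit makes false calls when arrays cluster as here.

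The comparison, the gene lists and the alternatives were chosen with earlier results of these data known. Named genes were the called ones, those with the smallest p, those whose groups do not overlap, those with the largest differences of array 3 from arrays 1 and 2, the calls without array 3, up to 4 members of each list, a fixed set of astrocyte genes, and the other probe sets of each. Promoter sequences are those of RefSeq on GRCr8.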

Additional observations from a re-analysis of the deposited data

Results flagged for a closer look

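Nalcn on AF078779_g_at was higher at 3 days than at 1 day, by a log2 difference of 2.62 with a limma adjusted p of 0.0430, and was named because 2 exposure times differed by a test of the difference itself.

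In the 34 probe sets checked, 5 had 1 control far from the other 5 by Dixon's criterion, which chance gives in about 1 of 20. Control 1 was the low one for Nalcn on AF078779_g_at, with a signal of 41.8, next to the 37.8 of 1 day array 3. Control 1 was also the low one for Igfbp2 on J04486_at, with 5011.0. Control 6 was the high one for Kcnma1 on U55995_at, with 43.9, inside the 42.5 to 54.3 of the arrays at 1 day. Control 2 was the high one for Il1rn, with 118.3, and control 3 the low one for Slc1a2 on U15098_at, with 36.5.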

How the results depend on the processing

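The count of 3 calls was 2 to 4 with floors at the 5th and 20th percentile, no filter, quantile normalization, median centring, cyclic loess or a trended and robust eBayes. It was 1 with a filter at the 50th percentile, 0 with limma on the 9 arrays alone, where 64 had an unadjusted p under 0.05, and 133 with array quality weights. The fit with a cluster block called 30, and there were 58 calls without controls 1 and 2 and 70 without those and 1 day array 3. Leaving out 1 array at a time gave 0 to 26, with 0 without 1 day array 1, 1 without array 2, 26 without array 3, 7 without control 1 and 6 without control 2. With the replicate block, which pairs arrays by number, 1 passed, Kcnma1 on U55995_at (0.00414), and the log2 folds were 1.90 for Slc1a2, -2.01 for Nalcn and -1.99 for Tacr3 with limma adjusted p-values of 0.118, 0.410 and 0.410. Fewer arrays give fewer degrees of freedom, but the counts went both up and down when arrays were left out. The causes were not tested.

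Array 3 alone against the 6 controls, with its spread assumed to be that of the other groups, turned the sign for Slc1a2 on U15098_at (-0.37), Fos (0.37), Fgf2 (-0.11), Penk (-0.28), Igfbp2 (0.08), Lif (-1.21), Tfrc (-0.40) and Nr4a3 (1.11). Against controls 1 and 2 it did so for Slc1a2 on U15098_at (-0.45), Nalcn on AF078779_at (0.32), Fos (1.15), Cnr1 (-0.22), Igfbp2 (0.44), Lif (-0.85), Tfrc (-0.39), Nr4a3 (1.33), Lsamp (0.11) and Gria3 (0.03). Slc1a2 on U15098_at also turned without 1 day array 2 (-0.05) and without control 3 (-0.10). With no filter, Slc18a2, a vesicle transporter of monoamines and too dim to test otherwise, was the 1 further call, with 3.6, 8.6 and 10.6 at 1 day, all under the floor, against 21.0 to 42.7 in the controls.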

Other observations

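Probe sets of 1 gene disagreed for several genes named above. Nptxr had a log2 fold of -0.82 on AF005099_at and 1.51 on rc_AI045501_s_at, where the signals were 699.0, 773.2 and 75.8 at 1 day against 57.9 to 318.5 in the controls, and without array 3 both passed by limma, in opposite directions, with adjusted p-values of 0.0466 and 0.0361. Kcnma1 had 1.64 and -1.0, and Nr4a3 had -1.08 and 1.51. Agreement was closer for Fos, with -1.64, -1.30 and -1.04 on the 3 probe sets called without array 3, and for Igfbp2, with -0.87 and -0.79. The 3 probe sets of Cx3cl1 above 1 log2 unit had 2.65, 2.57 and 1.80. Which probe set of a disagreeing pair matches the transcript of the named gene was not tested, since probe sequences are not used here.

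Foxd1, a forkhead transcription factor, passed with the cluster term and was divided by cluster on L13192_f_at, with 248.5, 212.3 and 2102.8 at 1 day, against 1807.5 and 1942.8 on controls 1 and 2 and 27.8 to 38.2 on controls 3 to 6. Arrays 1 and 2 lay between the controls of the clusters, as they did for Cntf and Serpine2.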
